A study of Mus musculus with 4 samples.

Results

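The 4 Hox clusters of the mouse were examined in 4 lists of methylated DNA intervals (peaks) from methylated DNA immunoprecipitation sequencing (MeDIP-seq), in which sonicated genomic DNA is captured with an antibody against 5-methylcytosine and then sequenced. Members were the peaks overlapping fixed windows of the mm9 build: HoxA, chr6:52095000-52225000; HoxB, chr11:96045000-96240000; HoxC, chr15:102740000-102880000; and HoxD, chr2:74495000-74615000. The windows span 585 kb and stand for 38 Hox genes. They held 24 of 167712 peaks in islets of offspring of control fathers and 21 of 167325 in islets of offspring of T2D fathers. In sperm they held 36 of 177342 in control and 36 of 178584 in T2D.

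All animals were ICR mice. Male founders of the T2D (type 2 diabetes model) groups ate a high-fat diet with 33% of energy from fat, were injected with a low dose of streptozotocin, a toxin of the insulin-producing beta cells, at 12 weeks of age, and were kept in the group if weekly fasting glucose stayed between 7 and 11 mM for 4 weeks afterwards. Control founders ate a control diet, and the labels give no injection for them. Sperm came from 6 control and 6 T2D founders, with an age label of 16 weeks, which is also when founders were mated to females on standard diet. Islets came from 6 control and 6 T2D offspring at 3 weeks of age, and the offspring themselves are not said to have had the diet or the injection. Each group is 1 library, how its animals were combined is not stated, and differences between libraries therefore have no replicate check and no p-value. The comparison between tissues has 2 libraries on each side, where an exact permutation test cannot give a p below 0.333, and tissue, age and generation cannot be told apart in it.

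Hox genes encode homeodomain transcription factors that set position along the head-to-tail axis of the embryo. Within a cluster the genes lie in the order in which they act: paralog groups 1 to 3 at the anterior end, which pattern the hindbrain and neck, groups 4 to 8 in the centre, and groups 9 to 13 at the posterior end, which act in the lower trunk, limbs and genital region. Clusters are dense in CpG islands, which are usually unmethylated in the germ line, and in cells that keep a Hox gene silent the Polycomb proteins often hold it without DNA methylation. In adult tissues DNA methylation in a cluster often differs between cell types.

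Of the 38 genes, 7 belong to the anterior, 15 to the central and 16 to the posterior paralog groups. In the RefSeq gene table of GRCm38.p6, HoxA runs from Hoxa2 at the lower coordinates to Hoxa13 at the higher, whereas HoxB, HoxC and HoxD run from Hoxb13, Hoxc13 and Hoxd13 at the lower coordinates to Hoxb1, Hoxc4 and Hoxd1 at the higher. The same orientation was taken for mm9. No mm9 annotation was used here, so peaks were placed by position within a window and were not assigned to genes, exons or introns, and the window ends were not checked against gene positions.

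MeDIP recovers fragments by their methylated CpGs, so the CpG content of Hox promoters bounds what the method can see there. RefSeq promoter sequences (GRCm38.p6) were matched by symbol to 22 of the 38 genes, giving 24 start sites, and the 250 bases before each start were used. The Hox promoters with the most CpG, Hoxa13 and Hoxd13 (limb and genital tubercle patterning), are shown with a pair at the low end, Hoxa9 and Hoxd4. Sequences are written 5′ to 3′ on the strand of the gene, with each CG in capitals.
Hoxa13, GRCm38.p6 chr6:52260881-52261130, minus strand: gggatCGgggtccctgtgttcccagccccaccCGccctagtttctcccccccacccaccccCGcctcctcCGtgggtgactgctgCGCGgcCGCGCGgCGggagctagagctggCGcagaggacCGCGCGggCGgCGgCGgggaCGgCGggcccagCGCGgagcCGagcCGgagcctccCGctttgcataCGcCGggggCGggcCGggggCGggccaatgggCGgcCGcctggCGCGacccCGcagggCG
Hoxd13, GRCm38.p6 chr2:74667975-74668224, plus strand: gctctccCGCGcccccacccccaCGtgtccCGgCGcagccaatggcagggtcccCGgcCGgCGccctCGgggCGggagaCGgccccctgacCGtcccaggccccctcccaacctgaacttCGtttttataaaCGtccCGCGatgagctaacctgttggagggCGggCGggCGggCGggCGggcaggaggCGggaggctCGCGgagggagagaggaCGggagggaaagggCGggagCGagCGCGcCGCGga
Hoxa9, GRCm38.p6 chr6:52227371-52227620, minus strand: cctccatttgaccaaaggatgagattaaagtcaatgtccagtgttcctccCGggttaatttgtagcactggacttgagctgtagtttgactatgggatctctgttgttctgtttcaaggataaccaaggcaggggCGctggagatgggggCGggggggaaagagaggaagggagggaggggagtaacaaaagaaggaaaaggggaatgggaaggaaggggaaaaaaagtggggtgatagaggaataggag
Hoxd4, GRCm38.p6 chr2:74721728-74721977, plus strand: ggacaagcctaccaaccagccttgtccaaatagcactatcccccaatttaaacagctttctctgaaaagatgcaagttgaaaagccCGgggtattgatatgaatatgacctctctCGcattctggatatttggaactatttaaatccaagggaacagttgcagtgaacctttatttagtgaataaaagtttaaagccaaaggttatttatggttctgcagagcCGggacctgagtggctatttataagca

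These held 35 CG in Hoxa13, 31 in Hoxd13, and 3 each in Hoxa9 and Hoxd4. The 24 Hox promoters had a median of 12.5 CG (range 2 to 35) against a median of 6 over all 32851 promoters of the table. At least 10 CG, a motif that reads the same on both strands, were found in 62.5% of the Hox promoters and in 37.8% of all promoters. The spread within a cluster was wide: in HoxD the promoter of Hoxd13 held 31 CG and the first of the 2 starts of Hoxd11 only 2. Promoter sequences of 15 of the 19 genes of HoxB and HoxC were not used, since no match was found by symbol, and these counts therefore describe mainly HoxA and HoxD.

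Inside the clusters, peaks were sparser than in the surrounding DNA in all 4 libraries. Islets of control offspring had 4.1 peaks per 100 kb in the clusters and 9.38 in the flanks, defined as 1 Mb on each side (604 kb on the distal side of HoxC, where the called part of the chromosome ends). Islets of offspring of T2D fathers had 3.59 and 9.22. Both sperm libraries had 6.15 in the clusters and 10.3 in the flanks. Over the whole lists, per 100 kb of the effective genome size given for sperm, the density was 6.33 in control and 6.31 in T2D islets. It was 6.69 in control and 6.74 in T2D sperm. The flanks were thus denser than the genome in every library. Sperm clusters lay only slightly below the genome value, and islet clusters further below it.

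The cluster-to-flank ratio was 0.438 (95% interval 0.278 to 0.656) in control islets, 0.389 (0.24 to 0.6) in T2D islets, 0.598 (0.416 to 0.836) in control sperm and 0.595 (0.414 to 0.831) in T2D sperm. These exact binomial intervals cover counting error only, and all 4 lie below 1. In sperm this rested in part on weak peaks: with peaks of a score of at least 100 (the caller's p-value on a negative log10 scale, times 10), the interval reached past 1 in both libraries, at 0.686 (0.387 to 1.13) in control and 0.887 (0.534 to 1.4) in T2D sperm, while the islet ratios were 0.342 (0.136 to 0.715) and 0.394 (0.157 to 0.825). Over the 4 clusters, the share of bases under a peak was likewise lower inside than outside. It was 4.61% in clusters against 9.32% in flanks in control islets, 3.69% against 9.46% in T2D islets, 6.11% against 12.1% in control sperm, and 6.23% against 11.8% in T2D sperm.

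**Figure D1:**
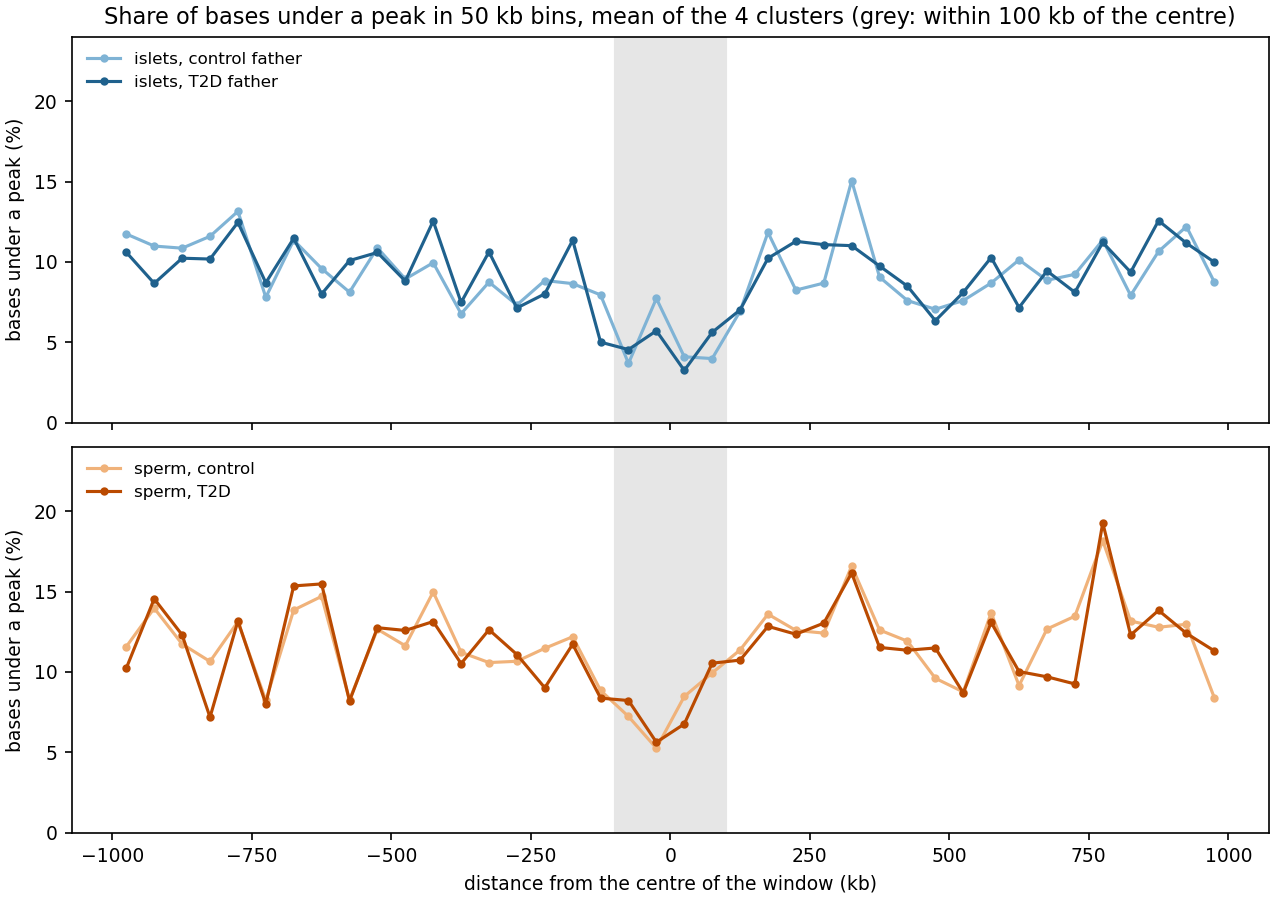
Mean share of bases under a peak (y axis, percent) in 50 kb bins from 1000 kb below to 1000 kb above the window centre (x axis, kb), averaged over the clusters, with islets above and sperm below and a line for each library. The lowest bin of every library lies within 100 kb of the centre, at 3.68% in control islets, 3.26% in T2D islets, 5.26% in control sperm and 5.63% in T2D sperm.

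The peaks that were present differed from their surroundings less than their number did. Median width in the clusters was 965 bp in control islets and 855 bp in T2D islets, against 903 and 919 bp in the flanks. In sperm it was 891 bp in control and 933 bp in T2D, against 1064.5 and 1021 bp in the flanks. Median tags (sequenced reads in a peak, not scaled to depth) were 44 and 49 in the islet clusters against 41 in the flanks of each, and 48.5 and 47 in the sperm clusters against 57 and 55. Thus median tags over all clusters were slightly above the flanks in islets and slightly below them in sperm. The difference was not tested, and the counting interval of the cluster median included the flank median in every library. In islets, HoxA lay above its own flanks (52.5 against 37 in control, 64 against 40 in T2D). So did HoxD in T2D islets (37 against 36), while the other islet medians lay below. In sperm, HoxC lay above its flanks (71.5 against 50 in control, 60 against 49 in T2D). So did HoxA in T2D sperm (57 against 55), while the other sperm medians lay below.

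The authors' fold enrichment had cluster medians of 6.12 and 7.33 in control and T2D islets and 7.25 and 7.38 in sperm, against flank medians between 6.58 and 7.07 over the 4 libraries. Peaks of 2 kb or wider were 4 of 24 in control islets (16.7%, against 3.09% of flank peaks and 3.13% of the list) and 2 of 21 in T2D islets (9.52%, against 4.42% and 3.88%). In sperm they were 1 of 36 in each library (2.78%, against 7.54% of flank peaks in control and 7.51% in T2D). The share was thus above the flanks in islets and below them in sperm, on few peaks, and of the 4 in control islets 3 lay in HoxA.

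The clusters differed from each other in which tissue carried the peaks. HoxA was the cluster with most peaks in islets, 10 in control and 9 in T2D, and had 5 in each sperm library. HoxB had 9 and 6 in islets and 18 and 17 in sperm. HoxC had 1 and 2 in islets and 8 and 10 in sperm. HoxD had few in any library: 4 and 4 in islets, 5 and 4 in sperm. Genome tiles of the same length had median counts of 8 in islets and 9 in sperm for HoxA, and 12 and 14 for HoxB. For HoxC these medians were 9 and 10, and for HoxD 7 and 8. HoxA in islets and HoxB in sperm thus lay above the tile median, and HoxC in T2D sperm at it. The other counts lay below.

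By number of peaks, both sperm libraries were below both islet libraries in HoxA and above them in HoxB and HoxC, with no overlap. Over all tiles of the genome with the length of HoxA, 16.9% showed the HoxA pattern, 28.1% of tiles of the HoxB length showed the HoxB pattern, and 25.1% of tiles of the HoxC length showed the HoxC pattern, so such an order is common and is no result about these clusters. Against its own flanks, HoxA in islets had a density ratio of 0.845 (0.399 to 1.59) in control and 0.736 (0.332 to 1.43) in T2D, intervals that include 1. By bases, HoxA in control islets lay above its flanks, with 11% under a peak against 8.6% and 792 tags in peaks per 100 kb against 411, while T2D islets had 8.47% against 9.64% and 501 tags against 449. HoxA in sperm had 0.342 (0.11 to 0.81) and 0.333 (0.107 to 0.788). For HoxB the tissues were the other way round, at 0.421 (0.19 to 0.815) and 0.3 (0.109 to 0.665) in islets and 0.871 (0.506 to 1.41) and 0.846 (0.484 to 1.39) in sperm.

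HoxC, which holds no gene of the anterior groups, had the lowest ratios in islets: 0.0868 (0.00218 to 0.492) in control and 0.18 (0.0216 to 0.665) in T2D. None of its 3 islet peaks reached a score of 100. In sperm its ratios were 0.745 (0.315 to 1.52) and 0.862 (0.404 to 1.63). HoxD was below its flanks in every library, with ratios of 0.37 and 0.368 in islets and 0.375 and 0.309 in sperm and upper limits between 0.802 and 0.965. These calls were not firm: with windows narrowed by 10 kb at each end the upper limits were 1.17 and 1.16 in islets and 1.09 in control sperm. With peaks of a score of at least 100, the ratio of a single cluster whose interval stayed below 1 was that of HoxB in T2D islets (0.133, 0.00333 to 0.765), and no other.

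**Figure D2:**
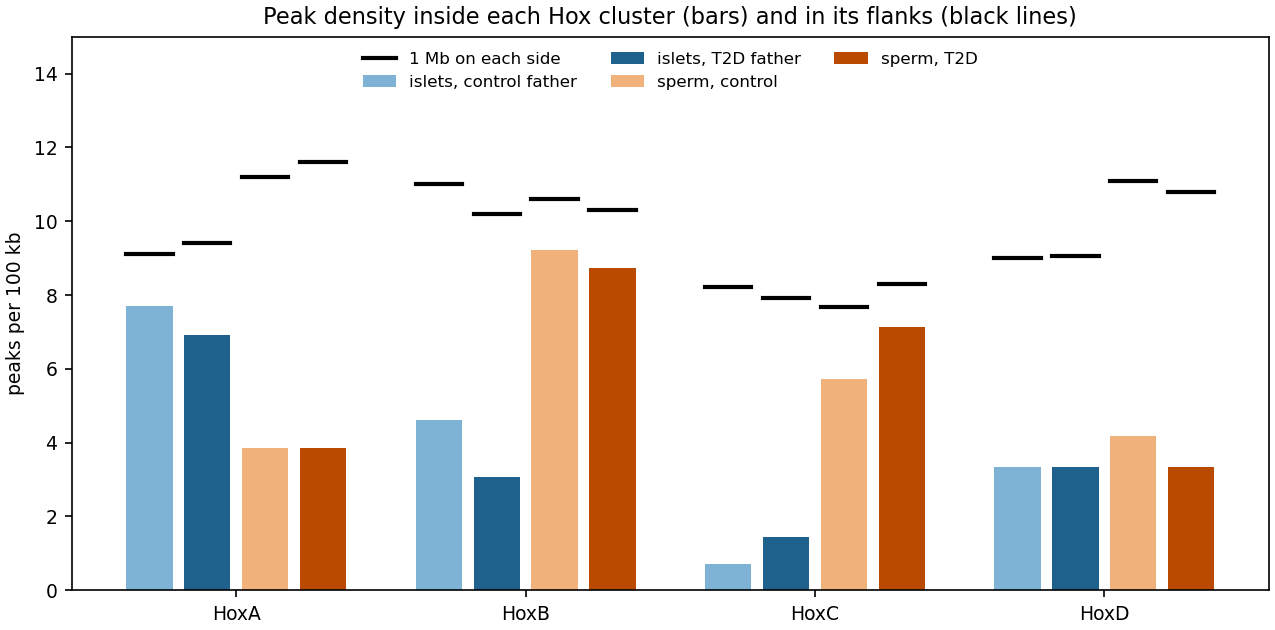
Peaks per 100 kb (y axis, from 0) in each Hox cluster (x axis) for the 4 libraries, as bars, with the density in the 1 Mb flanks of that cluster as a black line over each bar. All 16 bars lie below their line; the islet bars come nearest to it in HoxA, and the sperm bars in HoxB and HoxC.

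Along the clusters, islet peaks lay almost entirely on the side of the window toward the anterior end of the gene order. In control islets 23 of 24 peaks (95.8%, Wilson 95% interval 79.8 to 99.3) had their midpoint on the anterior side of the window's midpoint, and in T2D islets 18 of 21 did (85.7%, 65.4 to 95). In sperm the counts were 23 of 36 (63.9%, 47.6 to 77.5) in control and 22 of 36 (61.1%, 44.9 to 75.2) in T2D. Tags were placed likewise: 98% of the tags in Hox peaks of control islets and 89.8% of those in T2D islets were on the anterior side, against 70.6% and 61.4% in control and T2D sperm. With peaks of a score of at least 100, the share of peaks was 100% (64.6 to 100) in control and 85.7% (48.7 to 97.4) in T2D islets. In sperm it was then 81.2% (57 to 93.4) in control and 55% (34.2 to 74.2) in T2D. At that score control sperm was therefore close to T2D islets. The anterior share was chosen as a measure after the map of peaks had been seen, and the midpoint of a window is not a boundary between gene groups. The anterior side can thus also hold genes of other groups, and HoxC has no gene of the anterior groups. How many genes lie on each side was not determined, so a peak there is not a peak at an anterior gene.

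In HoxA, the side of Hoxa2 held 10 of 10 control and 8 of 9 T2D islet peaks. In HoxB, the side of Hoxb1 held 9 of 9 control peaks but 4 of 6 in T2D islets. Over the genome, of the tiles of the HoxA length with at least 5 peaks, 2.7% in control islets and 2.77% in T2D islets had at least 85% of their peaks on 1 side of the midpoint. For tiles of the HoxB length the share was 3.02% in control islets, and in T2D islets 2.53%, and the T2D islet peaks of HoxB did not reach the 85%. The 85% and the limit to HoxA and HoxB in islets were not planned before these peaks had been seen. The tile shares are therefore a description and no test of rarity. HoxD had 3 of 4 and 4 of 4 islet peaks on the side of Hoxd1, and HoxC had 1 of 1 and 2 of 2 on the side of Hoxc4, numbers too small to place. Sperm peaks of HoxB were spread over both sides, with 10 of 18 in control and 10 of 17 in T2D on the anterior side. The anterior side held 3 of 5 sperm peaks of HoxA in each library, and 6 of 8 and 5 of 10 of HoxC. In HoxD it held 4 of 5 control and 4 of 4 T2D sperm peaks, so there the sperm peaks lay as far to the anterior side as the islet peaks.

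**Figure D3:**
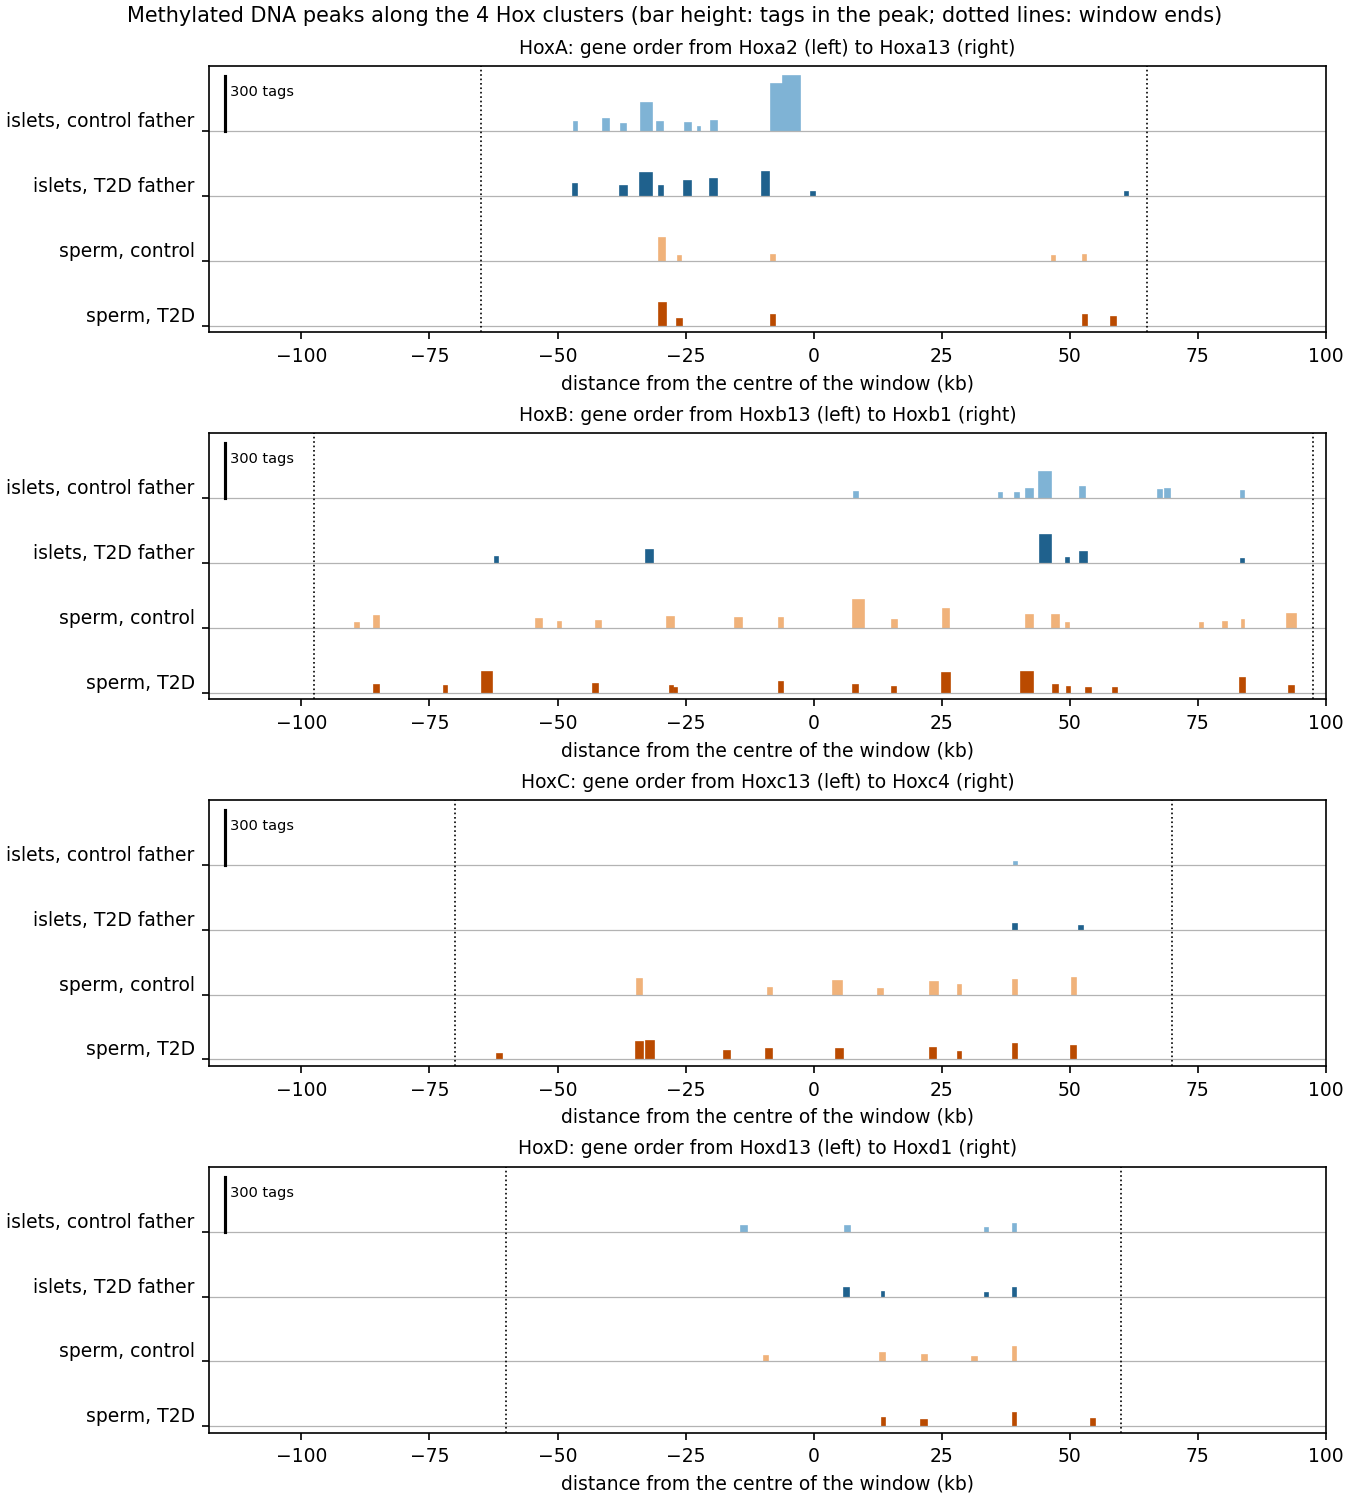
Peaks of the 4 libraries along each window, with the distance from the window centre in kb on the x axis, 1 row for each library, bar width showing the peak's width and bar height its tags (the scale bar marks 300 tags). Islet peaks gather left of the centre in HoxA and right of it in HoxB, which are the anterior sides, and HoxB and HoxC carry more sperm than islet peaks.

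In HoxA and HoxD the longest stretches without any peak were mainly on the posterior side in both tissues. In HoxA they were 67.7 and 60.5 kb in control and T2D islets, against 66.1 and 45.9 kb in its flanks. In control and T2D sperm they were 54 and 60 kb, against 56.8 and 57.3 kb. In HoxD they were 45.8 and 65.9 kb in control and T2D islets, against 46.1 and 47.9 kb in its flanks. In control and T2D sperm they were 50.3 and 73.4 kb, against 45.3 kb in the flanks of each. Several were therefore of similar length in the adjoining DNA. In HoxC, control and T2D islets each had no peak over 109 kb from the window's start on the side of Hoxc13, which is 78% and 77.8% of the window. Within the flanks of HoxC the longest stretch without a peak was of similar length, 106 kb in control and 122 kb in T2D islets. In HoxB, control islets had no peak over 105 kb from the start on the side of Hoxb13, longer than the 65.3 kb in its flanks. T2D islets had 2 peaks in that interval and a longest stretch of 75.6 kb.

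In HoxA, no library had a peak over 46.2 kb, chr6:52160231-52206459 (mm9), on the posterior side of the midpoint. In HoxD, no library had a peak over the first 45.8 kb of the window, chr2:74495000-74540829, on the side of Hoxd13. Over all 4 lists, the flanks of HoxA and HoxD had longest stretches of 42.4 and 39.6 kb, so the Hox stretches were slightly longer than any there. In HoxB and HoxC the longest stretches free of peaks in all 4 libraries were 13.6 and 26.1 kb, shorter than the 18.1 and 79.1 kb in their flanks.

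Few Hox peaks were found in both tissues. Of the control islet peaks, 7 of 24 (29.2%, 14.9 to 49.2) overlapped a control sperm peak by at least 1 bp, against 62% of flank peaks and 59.2% of the whole list. In the reverse direction 7 of 36 control sperm peaks (19.4%, 9.75 to 35) overlapped a control islet peak, against 56% in flanks and 55.8% in the list. The T2D libraries gave 7 of 21 islet peaks (33.3%, 17.2 to 54.6; flanks 59.2%, list 58%) and 7 of 36 sperm peaks (19.4%, 9.75 to 35; flanks 53.1%, list 54.2%). All 4 Hox intervals ended below the flank value.

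The islet shares depended on HoxA, where 2 of 10 control and 1 of 9 T2D islet peaks were shared. Without HoxA the share was 35.7% (16.3 to 61.2) against 61% in the flanks in control islets, and 50% (25.4 to 74.6) against 57.9% in T2D islets, so both intervals included the flank value. In T2D islets, with a partner allowed within 1000 bp, the share was 57.1% (36.5 to 75.5) against 65.2%. With both lists limited to a score of at least 100, the Hox share was below the flank share in all 4 directions, but the islet intervals, 8.22 to 64.1 in both conditions, then included the flank values of 43.6% and 40.7%. In sperm the shares without HoxA were 16.1% in control and 19.4% in T2D.

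Between conditions of the same tissue, the share of Hox peaks with a partner was near that of the list in sperm and lower in islets. In islets 13 of 24 control peaks (54.2%, 35.1 to 72.1) and 13 of 21 T2D peaks (61.9%, 40.9 to 79.2) had a partner, against 67.3% of either whole list. In sperm it was 26 of 36 in each direction (72.2%, 56 to 84.2), against 69.9% of the control and 69.4% of the T2D list. These intervals include the share of the list, but in islets they are too wide to show whether the shares are equal.

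**Figure D4:**
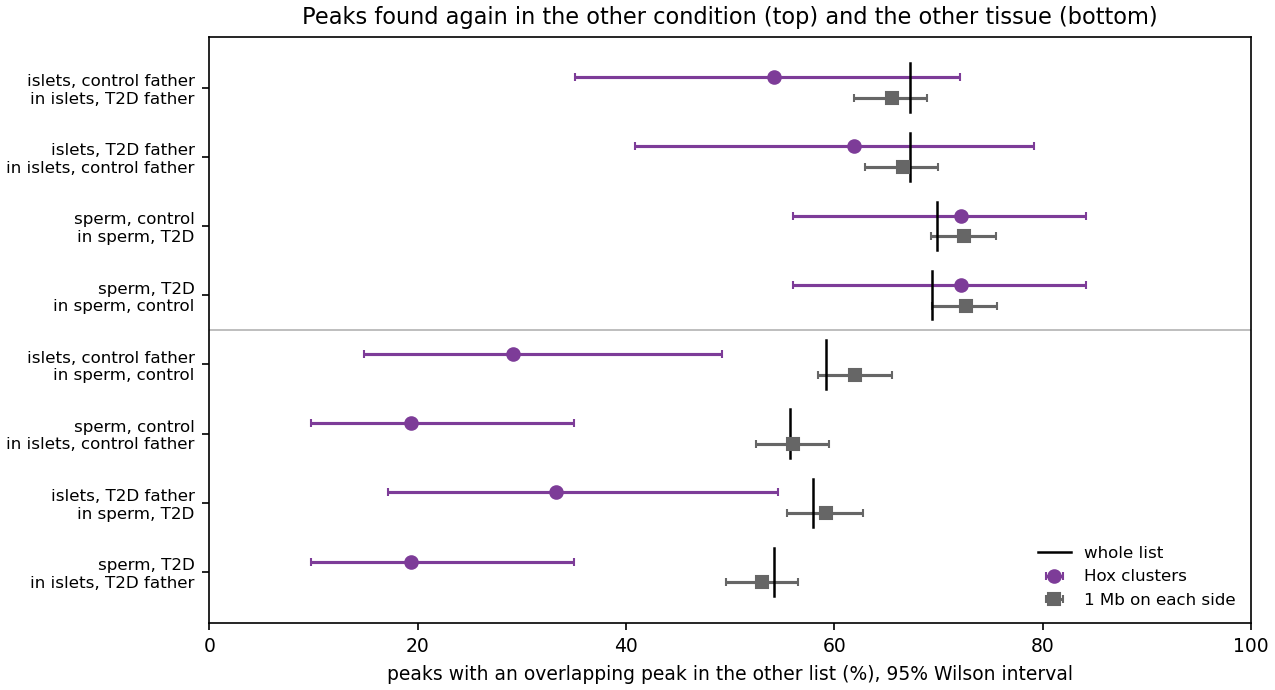
Share of peaks with an overlapping peak in a second list (x axis, percent) for the Hox clusters (circles), their flanks (squares) and the whole list (vertical ticks), with 95% Wilson intervals for clusters and flanks; the 4 comparisons between conditions are above the grey line and the 4 between tissues below. The Hox shares between tissues lie between 19.4% and 33.3%, below flanks and lists, whereas those between conditions overlap both.

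When all 4 lists were merged by overlap, the windows held 68 of 307189 regions. Only 4 (5.88%) were present in all 4 libraries, against 23% of the 1296 flank regions and 21.5% over the genome. Regions of both sperm libraries and no islet library numbered 17 (25%; flanks 10.6%, genome 9.07%), and those of both islet libraries and no sperm library 8 (11.8%; flanks 7.72%, genome 8.39%). A further 6 regions (8.82%; genome 16.5%) were in 3 libraries and 33 (48.5%; genome 35.7%) in 1 only. No region was in exactly 1 islet and 1 sperm library, a class with 8.92% of regions over the genome, and 0 of 68 allows a share of up to 4.41%.

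Each cluster had exactly 1 region common to all 4 libraries. In HoxA it was chr6:52129429-52131128 (mm9), with 47 tags in control islets, 54 in T2D islets and 122 in each sperm library. In HoxB it was chr11:96225675-96226605, near the Hoxb1 end of the window, with 36 and 22 tags in islets and 40 and 77 in sperm. In HoxC it was chr15:102848852-102849701, with 18 and 31 tags in islets and 80 and 84 in sperm, and it was the only control islet peak of that cluster. In HoxD it was chr2:74593815-74594523, with 42 and 49 tags in islets and 77 and 71 in sperm. All 4 lay on the anterior side of their window. Sperm tags were above islet tags in each, but no depth was found for the islet libraries, so tags of the tissues are not on the same scale.

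Regions of both islet libraries without a sperm peak lay mostly in HoxA, with 5 of the 8. The strongest in HoxA was chr6:52126153-52128383, with 153 tags in control and 127 in T2D islets. Next were chr6:52139797-52141219, with 53 and 92 tags, and chr6:52134636-52136044, with 45 and 82. HoxB had 1, chr11:96186427-96188903, which with 144 and 151 tags was the strongest peak of HoxB in either islet library. HoxD had 2, chr2:74560890-74562046 with 31 and 49 tags and chr2:74588455-74589037 with 19 in each, and HoxC had none.

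Regions of both sperm libraries without an islet peak were most frequent in HoxB, with 8, and in HoxC, with 6, which is 50% of the 12 regions of HoxC. In HoxC those with most tags were chr15:102775337-102776589 (84 in control and 94 in T2D sperm), chr15:102860268-102861147 (93 and 76) and chr15:102832686-102834185 (70 and 64). In HoxB they were chr11:96167622-96169029 (104 and 107), chr11:96135685-96136597 (54 and 59) and chr11:96234984-96236608 (74 and 34). The 3 of HoxC and the first 2 of HoxB had similar tags in both conditions.

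HoxA had 2 such sperm regions, chr6:52212479-52213324 with 33 tags in control and 57 in T2D, and chr6:52133303-52134266 with 24 and 34. The first lies toward the Hoxa13 end of the window, where neither islet library had an overlapping peak. HoxD had 1, chr2:74576030-74577137, with 33 and 32 tags.

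The comparison of T2D with control addresses whether diabetes in the father goes with a different methylation pattern in sperm and in the islets of offspring. Peaks without a partner in the other condition numbered 11 of 24 in control islets (list 32.7%), 8 of 21 in T2D islets (list 32.7%), and 10 of 36 in each sperm library (list 30.1% in control and 30.6% in T2D). The islet counts came to 45.8% and 38.1% of peaks and the sperm counts to 27.8%. Absence of a partner reports only that the other list made no call at that place.

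The largest peaks of 1 islet condition were adjacent and in HoxA. Control islets had a peak at chr6:52154060-52157318 with 298 tags, 3.55-fold enrichment and a score of 76.2, and another at chr6:52151753-52153984 with 257 tags, 3.31-fold enrichment and a score of 57.8. They are the strongest control islet peaks of the 4 clusters by tags. T2D islets had no peak overlapping either, but had one at chr6:52149829-52151348 with 132 tags and 3.71-fold enrichment, which ended 404 bp before the nearer of the 2. In the whole control islet list, 26 of the 102 peaks with at least 298 tags had no partner, and 54 of the 237 with at least 257 tags. Over all peaks of that list the share without a partner was 32.7%, so lacking one is not unusual for peaks of this size. Both sperm libraries had a peak overlapping the one with 257 tags, of 34 tags in control and 58 in T2D. Enrichment in these broad peaks was low for the list, whose median was 7.35, and both scores were below 100.

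The T2D islet peaks without a partner that had most tags were that HoxA peak and chr11:96109805-96111042 in HoxB, with 69 tags, 7.13-fold enrichment and a score of 159. The HoxB peak lay on the side of Hoxb13, in the 105 kb where control islets had none, and was overlapped by no sperm peak. In control sperm the leading peaks of this kind were both in HoxB, chr11:96127070-96128527 with 51 tags and chr11:96088267-96089557 with 50. In T2D sperm they were chr11:96077827-96079710 in HoxB with 110 tags and 3.66-fold enrichment, and chr15:102777289-102778920 in HoxC with 99 tags and 4.54-fold enrichment. The HoxC peak lay 851 bp from the nearest control sperm peak.

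Among peaks found in both conditions, tags were compared as T2D over control, scaled by the summed tags of all such pairs of the tissue. The 13 islet pairs had a median ratio of 1.15 (range 0.605 to 1.8), against 0.99 over all 111434 pairs. Of them 4 were at least 1.5-fold higher in T2D (9.46% of all islet pairs) and 1 at least 1.5-fold higher in control (8.97%). The 26 sperm pairs had a median of 1.01 (range 0.283 to 1.93), with 4 at least 1.5-fold higher in T2D (8.34% of all sperm pairs) and 4 in control (7.68%). Of all pairs, 18.4% in islets and 16% in sperm were past 1.5-fold in either direction.

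In islets the pairs higher in T2D were 2 in HoxA, with 45 and 82 tags (ratio 1.8) and 53 and 92 tags (1.72) in control and T2D, 1 in HoxC with 18 and 31 tags (1.7), and 1 in HoxD with 31 and 49 tags (1.56). The pair higher in control was the HoxB region common to all libraries, with 36 and 22 tags (0.605). In sperm that same region went the other way, with 40 and 77 tags (1.93). Wider peaks collect more tags: per kb of peak, 2 of the 5 islet pairs were past 1.5-fold, both in HoxA (1.62 and 1.52). In sperm 3 of the 8 pairs were, together with 2 others that were not past it by tags, in HoxC (0.62) and HoxD (1.53).

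All 4 sperm pairs higher in control were in HoxB. The largest difference was at chr11:96150215-96152282, where control sperm had 152 tags in a peak of 2068 bp and T2D sperm had 43 tags in a peak of 963 bp, a ratio of 0.283 and, per kb, of 0.606. The others had 74 and 34 tags (0.46), 67 and 40 (0.597), and 59 and 37 (0.628), with per kb ratios of 0.753, 0.743 and 1.4. The sperm pairs higher in T2D were 2 in HoxB, the region already named and one with 69 and 110 tags (1.6), and 2 in HoxA, with 34 and 58 tags (1.71) and 33 and 57 (1.73). Per kb the HoxA pairs had ratios of 1.69 and 1.55 and the HoxB pairs 1.18 and 0.92.

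**Figure D5:**
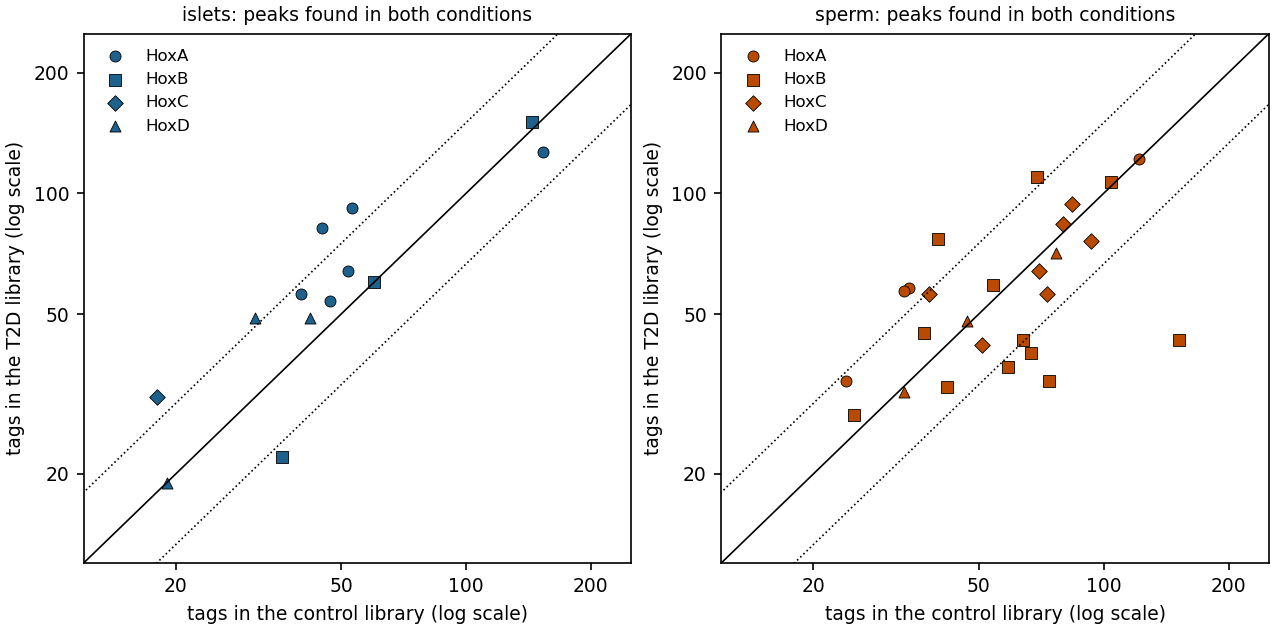
Tags in peaks found in both conditions, control on the x axis and T2D on the y axis, both on log scales and unscaled, for islets (left, 13 pairs) and sperm (right, 26 pairs), with the cluster given by the symbol. The solid line marks equal tags and the dotted lines 1.5-fold; the sperm point farthest from the solid line is the HoxB peak with 152 and 43 tags.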

How the data were processed

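MeDIP-seq was done on islets and sperm, with 1 library for each of 4 groups, and the submitters' processing notes name CASAVA 1.4 and the build mm9. Sperm peaks, per the file headers, were called with MACS without a control library, on 49 bp tags at a p-value threshold of 1.00e-05, from 31053754 unique tags in control and 31833988 in T2D. For the islet lists, caller and depth are not given in the sources used. The authors deposited, for each peak, a tag count, a score (10 times the negative log10 of the p-value) and a fold enrichment, together with the width in bp. In sperm, called without a control library, the enrichment is a ratio over that library's own background. What it is a ratio over in islets is not given. None of these was changed, and scores and enrichments are the authors' own values. Local copy number and mappability are thus not removed from the sperm peaks.

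Peaks were counted where they overlapped a window by at least 1 bp, using numpy 2.4.6 and pandas 2.3.3. Flanks were 1 Mb on each side. Matched pairs are overlapping peaks with no other partner. Tiles are consecutive windows of a cluster's length over the autosomes and X. Shares carry Wilson and ratios exact binomial intervals (95%, scipy 1.17.1), which cover counting error only, as neighbouring peaks and PCR copies are not independent. The share that a count of 0 allows is 3 counts of the total. The counting and overlap steps were tested on simulated lists. The clusters, windows and measures were chosen with earlier results of these data known. Regions were named by a rule: all those of 4 libraries, up to 3 per cluster of 1 tissue only, and the 2 with most tags of each condition only. Alternatives were a stricter score, narrower windows and flanks, other overlap rules, tags per kb, and each cluster left out.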

Additional observations from a re-analysis of the deposited data

Results flagged for a closer look

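Several measures of the clusters moved in opposite directions from control to T2D in the 2 tissues, each from 1 library a group, and in every case the difference was not tested. Over the 4 clusters, the share of bases under a peak differed by -0.92 percentage points in islets and 0.12 in sperm (T2D minus control), summed tags in peaks by -432 and 70, median width by -110 bp and 42 bp, and median tags by 5 and -1.5. In HoxA, the share of bases under a peak differed by -2.53 percentage points in islets and 0.88 in sperm, and summed tags by -379 and 83. The pair of broad HoxA peaks of control islets, with 298 and 257 tags, together holds more tags than this islet difference. In HoxD, summed tags differed by 18 in islets and -23 in sperm. Other measures moved the same way in both tissues. In HoxB the share of bases differed by -1.32 points in islets and -1.41 in sperm, and summed tags by -106 and -117. In HoxC the share differed by 0.819 and 2.34 points and summed tags by 35 and 127. In HoxD the share differed by -0.45 and -0.88 points. The number of peaks moved in opposite directions in no cluster.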

How the results depend on the processing

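Of 214 values recomputed under alternatives, 198 moved by less than their counting interval or by under 1.5 times and 16 moved by more. Among 116 recomputed ratios, none whose interval excluded 1 crossed it, but in 15 cases the interval then reached 1, of which 11 were at a score of at least 100. A further 5, whose interval had included 1, crossed it: at that score HoxA in T2D islets went from 0.736 to 1.1, HoxB in T2D sperm from 0.846 to 1.3, and HoxC in sperm from 0.745 to 1.37 in control and from 0.862 to 1.4 in T2D, and per kb the median sperm pair went from 1.01 to 0.927. Most of the 16 came from keeping only peaks with a score of at least 100, which leaves few Hox peaks. Under it the covered share ratio was 0.312 in control islets, the density ratio 0.887 in T2D sperm and 0 for HoxC in both islet libraries, and median tags were 71.5 in control sperm. The share of control sperm peaks with a T2D partner was 87.5%, the anterior share was 100% in control islets and 81.2% in control sperm, and 1 region was in all 4 libraries, 2 in both islet libraries only and 11 in both sperm libraries only, of which 8 were among the 17 reported and 3 had lost their islet peaks. Joining peaks within 500 bp gave 7 regions in all 4 libraries. By tags per kb 2 islet and 5 sperm pairs were past 1.5-fold, of which 2 sperm pairs were not so by tags. Added after the data were seen, leaving out HoxD put the anterior share of control islets at 100%, and a partner within 1000 bp put the share of T2D islet peaks also in T2D sperm at 57.1%. No paired analysis was possible because each group has 1 library and replicate numbers pair no animals.

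With 1 library a group, depth known for sperm only, and caller settings not known for islets, small differences in peak number between conditions cannot be told from differences in calling. Promoters were read from GRCm38.p6 and peaks from mm9, and the builds were not joined.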
